A study of Mus musculus with 8 samples.

Results

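The genes described here encode the T cell receptor complex and the molecules that start its signal. They were Cd3d, Cd3e, Cd3g, Cd247, Cd4, Cd8a, Cd8b1, Lck, Zap70 and Cd2. Every non-control probe whose gene name in the scanner files is among these 10 was taken, which gave 15 probes for 10 of the 25312 named genes on the array. In at least 1 group each of the 15 probes was well above background on both arrays, so all 10 genes entered the tests among 20116 genes. The arrays measured total RNA of intestinal fragments of 2 cm from 129SV mouse pups 3 days old, with no treatment. There were 4 groups, made by gene targeting of claudin-7 (wild type or knockout) and by segment (small or large intestine), with 2 arrays each, numbered 2 and 3. Claudin-7 is a protein of epithelial cell junctions. The labels name neither the targeted exons nor the position of the fragment along each segment, and they do not say which samples came from the same pup.

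The T cell receptor recognises antigen with a pair of variable chains, alpha with beta or gamma with delta, that have no signalling tail of their own. The signal is passed on by CD3 delta, epsilon and gamma and by the zeta chain encoded by Cd247, whose tails carry tyrosine motifs called ITAMs. CD4 or CD8 holds the kinase Lck near the receptor, Lck phosphorylates the ITAMs, and Zap70 docks on them and carries the signal further. In the gut such cells lie in the lamina propria, in lymphoid follicles and between epithelial cells, where many carry CD8 alpha without the beta chain.

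The probes read different parts of these transcripts, and the sequences of 4 of them are shown, whole or in part, because they mark what was detected. The probe of Cd3d and a probe of Cd247 lie across an ITAM, whose codons stand in capitals (2 tyrosines, each followed after 2 residues by leucine or isoleucine, found by translating the probe). Only 37 of 55681 probe sequences (0.0665%) held such a motif in an open frame, and 2 of them belong to these genes.
Cd3d, ITAM at bases 8 to 52 of the probe: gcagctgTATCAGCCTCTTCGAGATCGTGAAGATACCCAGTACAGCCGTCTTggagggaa
Cd247, ITAM at bases 16 to 60 of the probe: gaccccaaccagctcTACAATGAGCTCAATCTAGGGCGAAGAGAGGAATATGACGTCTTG
Cd4 has 2 probes whose readings differ strongly, as given further on. The dim probe starts at base 1242 of the listed transcript and is shown whole. The bright probe starts at base 3035. Its last 30 bases are shown because they hold AATAAA, the letters of the usual polyadenylation signal, at 2 places (capitals). Of all probes 0.447% hold this motif at 2 or more places.
Cd4, dim probe: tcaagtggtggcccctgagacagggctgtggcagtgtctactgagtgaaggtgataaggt
Cd4, end of the bright probe: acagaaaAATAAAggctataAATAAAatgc

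The 3 CD3 genes are neighbours. Their probes lie within 29.0 kb of chromosome 9 (44777868 to 44806887, build mm9, as listed in the scanner files, like the probe positions further on). The listing of the Cd3d probe spans 232 bases for a probe of 60, so it crosses a splice junction. Whether probes lie in coding or untranslated sequence was not analysed here. The promoters of these genes are shown because the genes lie side by side and all 3 fell in the knockout small intestine. They come from RefSeq on GRCm38.p6 and hold 250 bases before to 50 bases after the start of each gene, 5′ to 3′ on the gene's strand. The windows of Cd3g and Cd3d point away from each other and are 854 bases apart. Capitals mark AGGAAG (an ETS core), TGTGGT (a RUNX core), CTTTGA (a TCF core) and CACCTG (an E-box), each on either strand, with no overlap between matches.
Cd3g, chr9:44980382-44980681, minus strand: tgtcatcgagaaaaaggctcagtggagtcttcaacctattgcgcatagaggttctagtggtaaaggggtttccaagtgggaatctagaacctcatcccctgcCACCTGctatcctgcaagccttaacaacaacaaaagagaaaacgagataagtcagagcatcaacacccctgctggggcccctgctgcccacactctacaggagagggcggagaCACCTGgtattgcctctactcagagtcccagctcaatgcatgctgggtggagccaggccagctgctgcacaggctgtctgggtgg
Cd3d, chr9:44981536-44981835, plus strand: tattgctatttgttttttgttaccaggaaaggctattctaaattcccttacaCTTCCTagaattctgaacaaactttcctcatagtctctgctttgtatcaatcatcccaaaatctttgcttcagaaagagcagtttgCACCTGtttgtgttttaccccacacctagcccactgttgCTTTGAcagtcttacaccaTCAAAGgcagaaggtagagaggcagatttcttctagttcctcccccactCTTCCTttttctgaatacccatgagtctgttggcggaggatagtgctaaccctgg
Cd3e, chr9:45009562-45009861, minus strand: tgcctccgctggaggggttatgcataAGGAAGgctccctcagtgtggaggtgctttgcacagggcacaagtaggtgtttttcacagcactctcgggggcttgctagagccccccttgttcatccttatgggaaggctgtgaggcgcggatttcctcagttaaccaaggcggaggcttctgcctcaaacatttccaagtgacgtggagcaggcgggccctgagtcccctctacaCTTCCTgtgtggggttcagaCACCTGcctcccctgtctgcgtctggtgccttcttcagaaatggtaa
The E-box letters occurred in all 3 windows, the ETS letters at 2 places each in Cd3d and Cd3e, and the TCF letters at 2 places in Cd3d. In all, 7 of the 10 genes were in the promoter table. They have 10 promoters there, since some genes have several starts. CACCTG was found in 8 of these 10 promoters and in 20.2% of 32851 mouse promoters. AGGAAG was found in 7 of 10 and in 35.4% of all, CTTTGA in 3 of 10 and in 16%, and TGTGGT in 2 of 10 and in 16.8%. A match is a description of the letters and was not tied to binding of any factor.

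Signals are given as log2 of the processed signal over the array's 75th percentile, which was 2643 to 3572 signal units. A gene "passed" when limma gave an adjusted p under 0.05 over all 20116 genes, and differences are estimates ± SE with n = 2 arrays per group. These p-values measure the spread between arrays, which may be technical, and with so few arrays the precision is limited (median SE 0.28). In a whole fragment, fewer T cells and less RNA per T cell cannot be told apart. The targeted gene Cldn7 read 5.56 to 5.93 on the 4 wild-type arrays and 0.94 to 2.21 on the 4 knockout arrays. Some arrays stood apart. Serum albumin (Alb) had a log2 signal of 5.23 on the knockout large intestine array numbered 2 and at most -4.53 on the others. Pancreatic amylase (Amy2a5) was at 2.30 and 2.05 on 2 large intestine arrays (wild type numbered 2, knockout numbered 3) and at most -3.86 on the others. Xist, a transcript of the inactive X chromosome, was at -2.42 and -2.43 on both knockout arrays with the number 3 and at most -6.25 on the others. Ddx3y, a Y chromosome gene, was at -8.47 and -9.00 on those 2 arrays and at 0.70 to 1.33 on the others. These genes mark female pups on those 2 arrays and male pups on the others. Sex thus differed within both knockout groups, and whether it bears on the T cell receptor genes was not tested. Each group filled 1 slide column, so that column and group cannot be told apart.

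Comparing knockout with wild-type small intestine asks how the T cell receptor genes differ when claudin-7 is missing in that segment. Of the 10 genes, 5 fell and none rose: Cd3d, Cd3e, Cd3g, Cd8a and Cd2 (limma, n = 2 arrays per group). Of all 20116 genes, 3.5% fell, 6.38% rose and 9.88% passed in either direction. All 10 estimates were below 0, that of Cd4 only at -0.00085, with a median of -1.88 against -0.10 over all genes. For 8 of the 10 genes both knockout arrays read lower than both wild-type arrays, which held for 32.7% of all genes. The exceptions were Cd4 and Cd247, whose other probes, not used in the fit, did read lower on both knockout arrays. The estimates for Cd3d and Cd3g were -3.28 and -3.02 on the log2 scale, and that for Cd3e was -1.29.

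**Figure D1:**
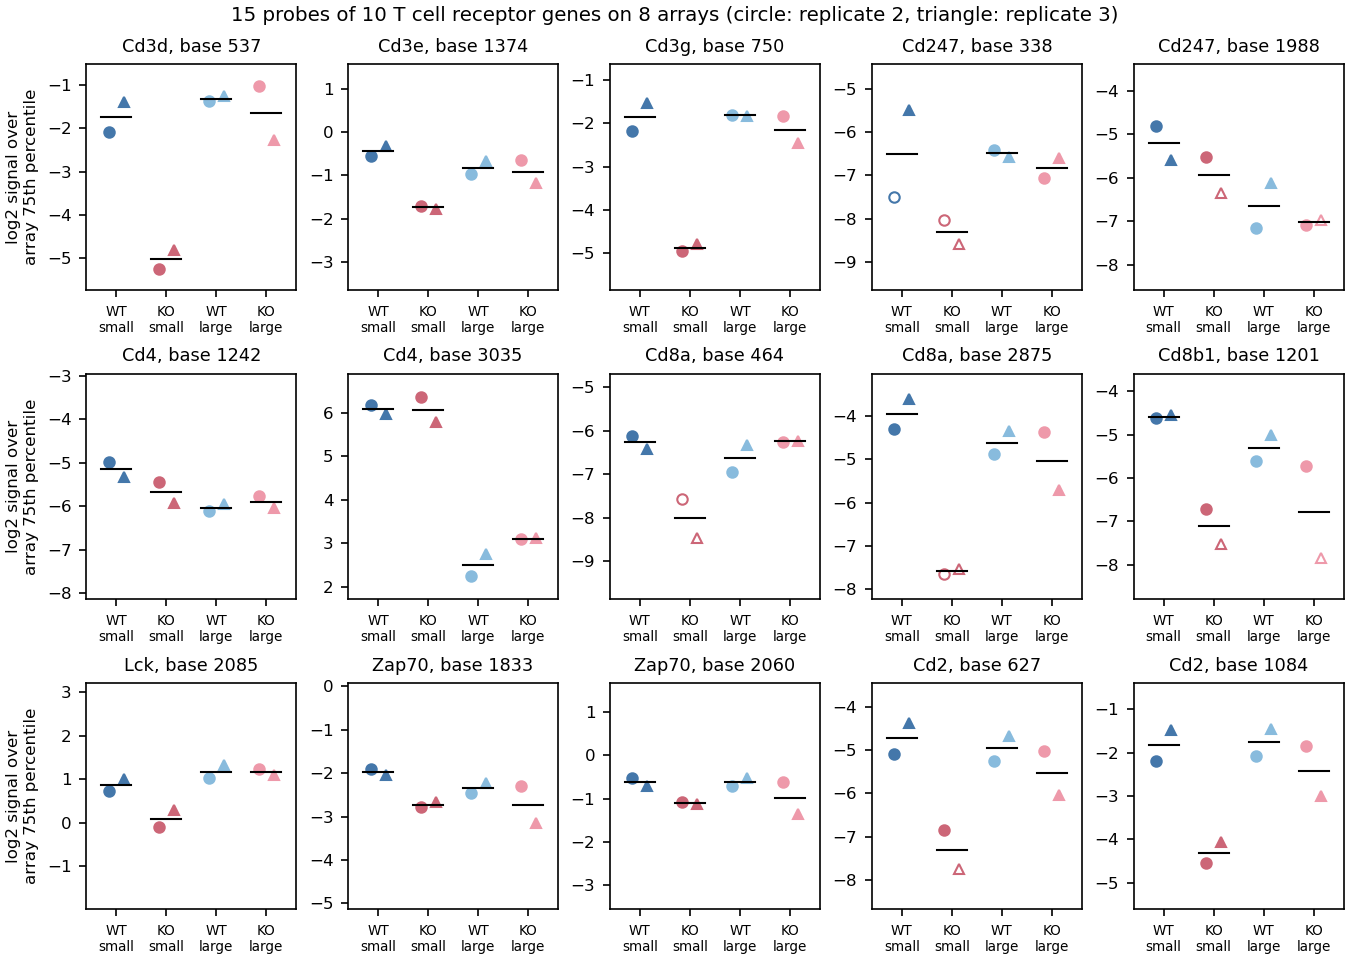
Log2 signal over the array's 75th percentile for the 15 probes (gene and start base in the listed transcript) in the 4 groups, with circles for replicate 2, triangles for replicate 3 and a black line at the group mean. Open symbols mark arrays on which the probe was not well above background, and each panel has its own axis. The Cd3d and Cd3g probes read -5.24 to -4.78 on the knockout small intestine arrays and -2.46 to -1.02 on the other 6 arrays.

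Cd3d encodes the delta chain, which pairs with epsilon in the receptor. It read -2.08 and -1.40 on the wild-type and -5.24 and -4.81 on the knockout small intestine arrays, or 732 and 1224 against 70.2 and 122 in signal units. The large intestine arrays read -1.38 and -1.26 in wild type and -1.02 and -2.28 in knockout. The knockout small intestine thus stood below all other arrays, and the knockout large intestine spread over the values of both wild-type segments. In the small intestine Cd3d fell by 3.28 ± 0.44, a 9.71-fold change (adjusted p = 0.0220 in limma).

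Cd3g encodes the gamma chain, the other partner of epsilon. Its wild-type small intestine arrays read -2.17 and -1.53 and its knockout arrays -4.95 and -4.78. The wild-type large intestine read -1.81 and -1.82 and the knockout large intestine -1.84 and -2.46. Again the knockout small intestine stood below all other arrays, and the wild-type segments overlapped. Cd3g fell by 3.02 ± 0.30, an 8.08-fold change, with the smallest adjusted p of the 10 genes (0.0112).

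Cd3e encodes the epsilon chain, which is in both CD3 pairs. Its small intestine arrays read -0.56 and -0.32 in wild type and -1.69 and -1.76 in knockout. Its large intestine arrays read -0.98 and -0.66 in wild type and -0.65 and -1.18 in knockout. The knockout small intestine was again lowest, and the fall was 1.29 ± 0.25 (2.45-fold, adjusted p = 0.0362). Whether Cd3e fell less than Cd3d or Cd3g was not tested.

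Cd247 encodes the zeta chain and is read by 2 dim probes. The probe used in the fit, which starts at base 1988 (chromosome 1, 167800324 to 167800383), read -4.80 and -5.59 on the wild-type and -5.51 and -6.35 on the knockout small intestine arrays. It read -7.16 and -6.13 on the wild-type and -7.08 and -6.98 on the knockout large intestine arrays. Its small intestine groups overlapped, and the difference of -0.74 ± 0.45 did not pass (adjusted p = 0.314). The ITAM probe read -7.50 and -5.50 in wild-type and -8.03 and -8.59 in knockout small intestine, where neither array was well above background. Its difference of -1.81 ± 0.61 did not pass either (adjusted p = 0.0996 with each probe tested on its own). That difference is not exact, since only 1 of the wild-type small intestine arrays was well above background as well.

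Cd8a encodes the alpha chain of CD8, the coreceptor for class I antigen. The probe at base 2875 (chromosome 6, 71328911 to 71328970), printed at 10 spots per array, read -4.29 and -3.62 in wild-type small intestine. It read -7.64 and -7.52 in the knockout, where it was not well above background on either array. In the large intestine it read -4.88 and -4.36 in wild type and -4.37 and -5.71 in knockout. Cd8a fell (fitted difference -3.62 ± 0.47, adjusted p = 0.0199), and its signal was at least 6.72-fold lower in the knockout small intestine. This bound sets the wild-type mean against the lowest level among probes well above background on each knockout array. Its spots had an SD within an array of 0.07 to 0.11 on the log2 scale on the 6 arrays well above background. The SD was wider, 0.25 and 0.39, on the knockout small intestine arrays numbered 2 and 3. The other Cd8a probe, at base 464, read -6.11 and -6.43 against -7.57 and -8.46, again with no knockout small intestine array well above background. Tested on its own it fell as well (-1.75 ± 0.35, adjusted p = 0.0397), at least 1.36-fold.

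Cd8b1 encodes the beta chain of CD8 and lies near Cd8a (probe at chromosome 6, 71287231 to 71287290). It read -4.62 and -4.55 in wild-type and -6.71 and -7.52 in knockout small intestine. It read -5.61 and -5.01 in wild-type and -5.72 and -7.84 in knockout large intestine. Knockout arrays were lower in both segments, and on the arrays numbered 3 of each knockout segment the probe was not well above background. The small intestine difference of -2.53 ± 0.66 did not pass (adjusted p = 0.0570).

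Cd2, an adhesion receptor of T and NK cells, is read by 2 probes with the same pattern. The probe used in the fit (chromosome 3, 101079831 to 101079890) read -2.19 and -1.47 in wild-type and -4.55 and -4.07 in knockout small intestine. It read -2.08 and -1.45 in wild-type and -1.85 and -2.99 in knockout large intestine. Cd2 thus fell by 2.48 ± 0.46, a 5.56-fold change (adjusted p = 0.0346). The probe with 10 spots read -5.08 and -4.37 against -6.84 and -7.75, with the last array not well above background, and fell by 2.57 ± 0.48 (adjusted p = 0.0366 on its own).

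Neither kinase passed. Lck, which phosphorylates the ITAMs (probe at chromosome 4, 129225614 to 129225673), read 0.72 and 1.0 in wild-type and -0.10 and 0.29 in knockout small intestine, and 1.03 to 1.32 on the 4 large intestine arrays. Its small intestine groups did not overlap, and the difference of -0.77 ± 0.23 did not pass (adjusted p = 0.0747). Zap70, the kinase that docks on phosphorylated ITAMs (probe at chromosome 1, 36839542 to 36839601), read -0.52 and -0.70 in wild-type and -1.08 and -1.14 in knockout small intestine. Its large intestine arrays read -0.72 and -0.52 in wild type and -0.61 and -1.37 in knockout. Neither the probe used in the fit (-0.49 ± 0.28, adjusted p = 0.272) nor the other (-0.75 ± 0.30, adjusted p = 0.145 on its own) passed.

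**Figure D2:**
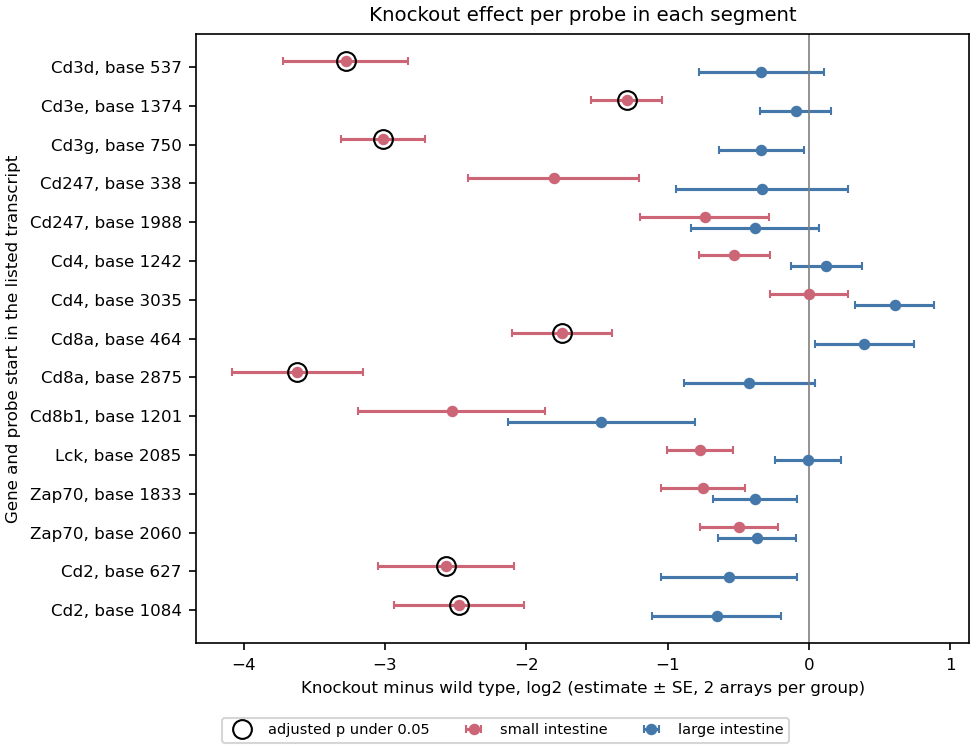
Knockout minus wild type on the log2 scale (estimate ± SE, 2 arrays per group) for each of the 15 probes, in the small intestine (red) and the large intestine (blue), with each probe tested on its own. Black rings mark an adjusted p under 0.05, and all 7 lie in the small intestine, on Cd3d, Cd3e, Cd3g and both probes of Cd8a and Cd2. On the knockout small intestine arrays neither the Cd8a probes nor the Cd247 probe at base 338 were well above background. The small intestine points of these probes are thus not exact.

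These calls rest on few arrays. The number of the 10 genes that passed in the small intestine was 0 without knockout small intestine replicate 3 (7 at an unadjusted p under 0.05). It was 1 without wild-type small intestine replicate 3, wild-type large intestine replicate 2 or wild-type large intestine replicate 3. With only the 2 small intestine groups fitted, 7 of the 10 genes were at an unadjusted p under 0.05 in limma, as were 4883 of all 20116. The number that passed was 0 there and 3 with no filter on background. Without knockout small intestine replicate 2 it was 4. The replicate number is also the slide row, and with it as a block the count was 3, with Cd3e (adjusted p = 0.0502) and Cd2 (0.0501) no longer passing. Within each slide row the knockout array read below the wild-type array for all 5 genes. In each of these settings the 5 differences kept their sign. For all 5 genes both knockout arrays read below both wild-type arrays. That alone fixes the order within slide rows and the sign with any 1 array left out, so neither is a separate check.

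In the large intestine none of the 10 genes passed in limma, and none had an unadjusted p under 0.05, where 2670 of all 20116 genes did. Of all genes 0.308% passed there. The median difference was -0.35 against 0.00 over all genes, and adjusted p ran from 0.402 to 0.993. Cd8b1 had the lowest estimate (-1.47 ± 0.66) and Cd4 the highest (0.61 ± 0.28). The genotypes did not overlap for Cd3g and Cd8b1, lower in the knockout as in 27.7% of all genes, and for the bright probe of Cd4, higher in the knockout as in 27.6%. Knockout replicate 3 read lower than knockout replicate 2 for Cd3d, Cd3e, Cd3g, Cd8a, Cd8b1, Lck, Cd2 and Zap70. These arrays also differ in Alb, Amy2a5, Xist and Ddx3y, and whether that bears on these genes was not tested. With knockout replicate 3 left out, Cd3d, Cd3e, Cd8a, Lck and Zap70 read above 0 in place of below, and none passed.

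The estimated knockout effect was higher in the large than in the small intestine for all 10 genes. It was higher by 0.13 (Zap70) to 2.94 (Cd3d) apart from Cd8a, which has only a bound in the knockout small intestine. The median of this difference was 1.13 over the 10 genes and 0.14 over all genes, with Zap70 below the latter. With 1 array left out this difference reached -0.16 for Cd247, -0.0033 for Cd8b1 and -0.25 for Zap70. None of these differences passed in limma, where 0.139% of all genes did. At an unadjusted p under 0.05 were 5 of the 10, and 5191 of all 20116 genes. The smallest adjusted p was 0.0994, for Cd3g (2.68 ± 0.42). A difference between segments was therefore not shown for any of the 10 genes. Over both segments (n = 4 arrays per genotype) none passed either in limma, where 0.651% of all genes did. Here 6 of the 10 were at an unadjusted p under 0.05, as were 3054 of all 20116 genes. Only for Cd8b1 did all 4 knockout arrays read below all 4 wild-type arrays (-2.0 ± 0.49, adjusted p = 0.115), as 3.72% of all genes did. Without knockout large intestine replicate 2, Cd8b1 passed (-2.53, adjusted p = 0.0362).

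Between the segments of wild-type pups, 1 of the 10 genes passed, and 9.93% of all genes passed in that direction. This was Cd4, the coreceptor for class II antigen, through its bright probe, whose large minus small intestine difference was -3.59 ± 0.28 (12.0-fold lower in the large intestine, adjusted p = 0.000748 in limma). The bright probe lies at chromosome 6, 124814711 to 124814770, and the dim probe at 124817706 to 124817765. The bright probe read 6.20 and 5.97 in wild-type and 6.37 and 5.79 in knockout small intestine, at 189582 to 227533 signal units. It read 2.24 and 2.75 in wild-type and 3.09 and 3.11 in knockout large intestine. No spot of it was saturated, and the genotypes overlapped in the small intestine (0.00 ± 0.28, adjusted p = 0.999). The dim probe, with 10 spots, read -4.98 and -5.33 in wild-type and -5.44 and -5.92 in knockout small intestine. It read -6.12 and -5.94 in wild-type and -5.77 and -6.05 in knockout large intestine. It was well above background on all 8 arrays, and its difference between segments of -0.88 ± 0.25 did not pass on its own (adjusted p = 0.0544). In the small intestine the dim probe was lower on both knockout arrays than on both wild-type arrays, and the difference of -0.53 ± 0.25 did not pass (adjusted p = 0.207). The Cd4 probes thus gave different patterns, and the cause was not tested.

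None of the other 9 genes passed between the wild-type segments. Cd247 read lower in the large intestine (-1.45 ± 0.45) and did not pass (adjusted p = 0.0668), while its ITAM probe differed by 0.0098 ± 0.61. The remaining 8 differences lay between -0.73 (Cd8b1) and 0.43 (Cd3d). Of the 10 genes, 5 (Cd247, Cd3e, Cd4, Cd8a and Cd8b1) read lower on both large than on both small intestine arrays, against 35.0% of all genes, and 2 (Cd3d and Lck) read higher, against 34.4%.

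**Figure D3:**
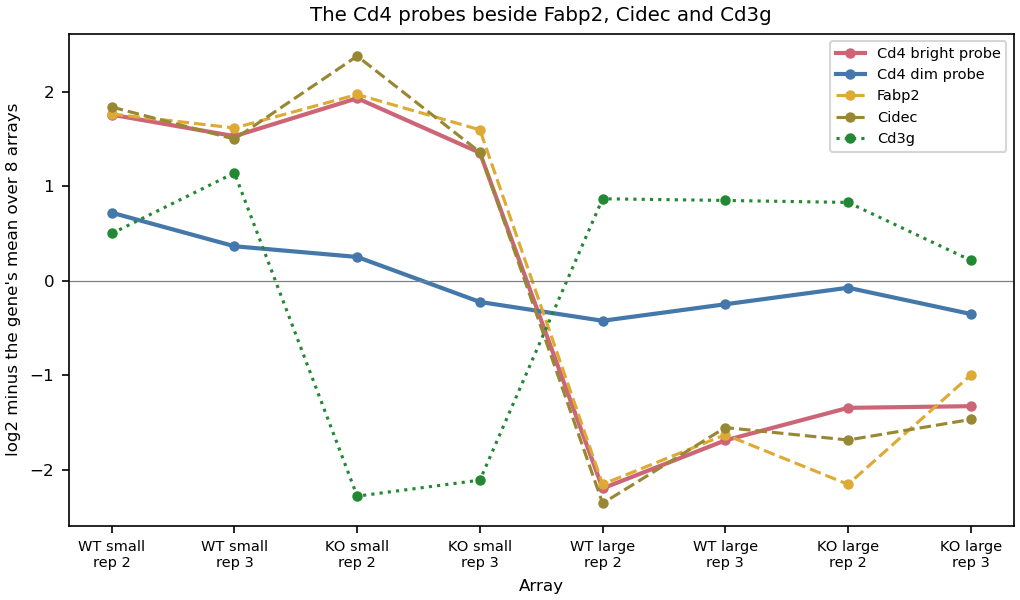
Log2 signal of each probe minus its mean over the 8 arrays, in array order, for the bright and dim Cd4 probes (solid), Fabp2 and Cidec (dashed) and Cd3g (dotted). The bright Cd4 probe follows Fabp2 and Cidec, high on the 4 small intestine arrays and low on the 4 large intestine arrays, while Cd3g is lowest on the 2 knockout small intestine arrays.

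The genes with the pattern most like that of the 10 were ranked by root mean square difference of centred log2 values over the 8 arrays. Those named here were Mzb1 (0.212), Tnfrsf13c, Vpreb3, Cd5, Fgr, Ribc1 and St6galnac2 (0.264), where the median over all genes was 0.787. Mzb1, Tnfrsf13c and Vpreb3 are known as B lineage genes, and Cd5 as a T cell signalling gene. With Cd4 left out the nearest were Eldr (0.239), Coq8a, Gnat2, Vpreb3, Spib, Fgfrl1, Cabcoco1 and Lmx1a, so that only Vpreb3 is in both sets of 8. For the bright Cd4 probe the nearest were Cidec (0.219), Fmo5, Olfr536, Fabp2 (0.323), Gramd1b, Slc16a6, Xdh and Prss12. Fabp2 is the fatty acid binding protein of enterocytes and Cidec a protein of lipid droplets. Among probes of the 10 genes the closest pair was the 2 Zap70 probes (0.158), and the closest pair of different genes was Cd3e with a Zap70 probe (0.324). Among Cd3d, Cd3e and Cd3g the closest pair was Cd3d with Cd3g (0.329). Cd3e stood further off, at 0.858 from Cd3g and 1.13 from Cd3d.

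The chains that bind antigen were sparsely covered. Of 20 names searched 5 were on the array and 3 were tested. Trgv1, a gamma chain variable gene, fell in the knockout small intestine by 0.97 ± 0.22 (adjusted p = 0.0450). Tcra differed by -2.02 ± 1.09 (adjusted p = 0.253; -3.56 to -0.49 with 1 array left out) and Trav6d-3 by -0.35 ± 0.31 (adjusted p = 0.483). The probes of Tcrb-J and Trgv2 did not reach the filter on background.

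Of 23 tested kinases, adaptors and regulators next to the receptor, 5 fell and 1 rose in the knockout small intestine, with a median of -0.57. Over all genes 3.5% fell and 6.38% rose, with a median of -0.10, and the list counts that follow stand beside these shares. Txk, a tyrosine kinase of T cells, fell by 1.49 ± 0.27 (adjusted p = 0.0333). Trat1, an adaptor that binds the receptor complex, fell (adjusted p = 0.0120) and was at least 1.95-fold lower, with no knockout array well above background. Of the scavenger receptor family proteins of T cells, Cd5 fell by 1.57 ± 0.31 (adjusted p = 0.0366) and Cd6 fell by 2.43 ± 0.57 (adjusted p = 0.0470). Vav1, an exchange factor used by many blood cells, rose by 0.85 ± 0.20 (adjusted p = 0.0450).

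Of 19 genes of the calcium, NF-kB and Ras branches 1 fell and 1 rose, with a median of -0.11. Malt1, a protease of NF-kB signalling, fell by 1.19 ± 0.25 (adjusted p = 0.0401). Rel, an NF-kB subunit, rose (adjusted p = 0.0456), at least 1.26-fold, from below background in wild type. Of 17 costimulatory and inhibitory receptors and their adaptors 1 fell, Sh2d1a, the SLAM receptor adaptor (adjusted p = 0.0300), at least 1.78-fold, and the median was -0.59. Of 23 T lineage transcription factors and cytokine receptors 1 fell and 1 rose. Bcl11b, a factor that commits cells to the T lineage, fell by 2.72 ± 0.26 (adjusted p = 0.0105), and Klf2, a factor of quiescent T cells and endothelium, rose by 1.01 ± 0.18 (adjusted p = 0.0325). Of 16 genes of gut homing and epithelial support of lymphocytes 1 fell, Xcl1, a chemokine of CD8 T and NK cells (adjusted p = 0.0161), at least 3.1-fold. In the large intestine none of these 6 lists had a gene that passed in limma. At an unadjusted p under 0.05 were 1, 4, 1, 3, 1 and 3 genes in the order given here, and 2670 of all 20116 genes.

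Between the segments of wild-type pups the gut homing and epithelial support list had 5 of 16 genes that passed, all lower in the large intestine, where 9.93% of all genes were lower. Btnl1, Btnl2 and Btnl6 encode butyrophilin-like proteins, some of which are known to sustain gamma delta T cells of the epithelium. Btnl2 differed by -7.10 ± 0.64 (adjusted p = 0.00142), Btnl1 by -4.62 ± 0.84 (0.0140) and Btnl6 by -2.66 ± 0.65 (0.0345). Ccl25, the chemokine that draws T cells to the small intestine, differed by -3.08 ± 0.58 (adjusted p = 0.0152), and Il15ra, which presents interleukin 15, by -1.19 ± 0.27 (0.0285). Bcl11b and Il2ra were also lower in the large intestine among the 23 transcription factors and cytokine receptors, and none of that list passed as higher. The genes next to the receptor were mixed, with Dgka and Grap2 higher and Ptpn6 lower in the large intestine among 23.

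Markers of other cells moved with the knockout in the small intestine too, where 3.5% of all genes fell and 6.38% rose. Of 15 tested NK and innate lymphoid markers 4 fell and 1 rose: Gzma, a granule protease, fell by 2.12 ± 0.35 (adjusted p = 0.0293), Ctsw fell by 1.24 ± 0.29 (0.0470) and Gzmb fell by 1.10 ± 0.23 (0.0394). Ncr1, an NK receptor, fell too (adjusted p = 0.0184), at least 1.07-fold, and Il1rl1, the IL-33 receptor, rose by 2.39 ± 0.34 (0.0232). Of 12 B cell markers 2 fell, and 11 of the 12 estimates were below 0. Ms4a1, a surface protein of B cells, fell by 3.42 ± 0.57 (adjusted p = 0.0286). The mean of the B cell list was -3.49 and -3.36 on the wild-type and -4.37 and -4.47 on the knockout arrays. Of 13 myeloid markers 3 rose, Cd14 by 2.27 ± 0.21 (adjusted p = 0.00953), Lyz2 by 1.77 ± 0.28 (0.0268) and Adgre1 by 1.32 ± 0.23 (0.0316). The median over these 13 was 0.51, and 4 of the 13 estimates were below 0. Of 10 genes of organised lymphoid tissue, Ccl19, a chemokine of T cell zones, fell by 3.56 ± 0.71 (adjusted p = 0.0375), and Cxcl13, a chemokine of B cell follicles, rose by 1.99 ± 0.37 (0.0343).

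Of 13 pan-leukocyte genes, Ptprcap fell by 1.14 ± 0.28 and Lsp1 rose by 1.07 ± 0.25 (adjusted p = 0.0493 and 0.0449). Ptprc, encoding CD45, read -1.27 and -1.13 in wild-type and -1.75 and -1.73 in knockout small intestine and did not pass. The mean over the list was 0.48 and 0.51 on the wild-type and 0.42 and 0.41 on the knockout arrays. Of the 6 thymocyte genes on the array, Rag1, Rag2 and Ptcra did not reach the filter on background. Of the 3 tested none passed in limma, with 2 at an unadjusted p under 0.05, as were 6326 of all 20116 genes. Of 10 liver and pancreas genes 1 rose, Cela1, an elastase (1.92 ± 0.31, adjusted p = 0.0285), while 7 estimates were below 0 with a median of -0.40. Ctrb1, a pancreatic protease, had a mean of 4.04 in wild type and -2.05 in knockout, and its difference of -6.09 ± 2.23 did not pass (adjusted p = 0.117).

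Of 10 smooth muscle genes, Tagln rose by 1.09 ± 0.26 (adjusted p = 0.0493), and all 10 estimates were above 0 with a median of 1.35. The list's mean was 3.89 and 2.70 on the wild-type and 4.53 and 4.90 on the knockout small intestine arrays. It was 4.02 to 4.56 on the large intestine arrays. Of 10 epithelial genes Krt20 rose by 2.28 ± 0.25 (adjusted p = 0.0129), while Cdx1 fell by 1.31 ± 0.25 and Cdx2 fell by 1.73 ± 0.36 (adjusted p = 0.0360 and 0.0394). The mean of the epithelial list was 5.22 and 5.45 on the wild-type and 5.29 and 4.95 on the knockout arrays. Of 8 endothelial genes none passed in limma, and all 8 estimates were above 0. Of these 8, 1 was at an unadjusted p under 0.05, against 6326 of all 20116 genes. Of the 32 genes of all 16 lists that passed in the small intestine, 2 passed without wild-type small intestine replicate 3, and likewise 2 without knockout small intestine replicate 3. The count was 6 without either wild-type large intestine array and 18 without either knockout large intestine array. The part of these shifts in the T cell receptor values was not tested.

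**Figure D4:**
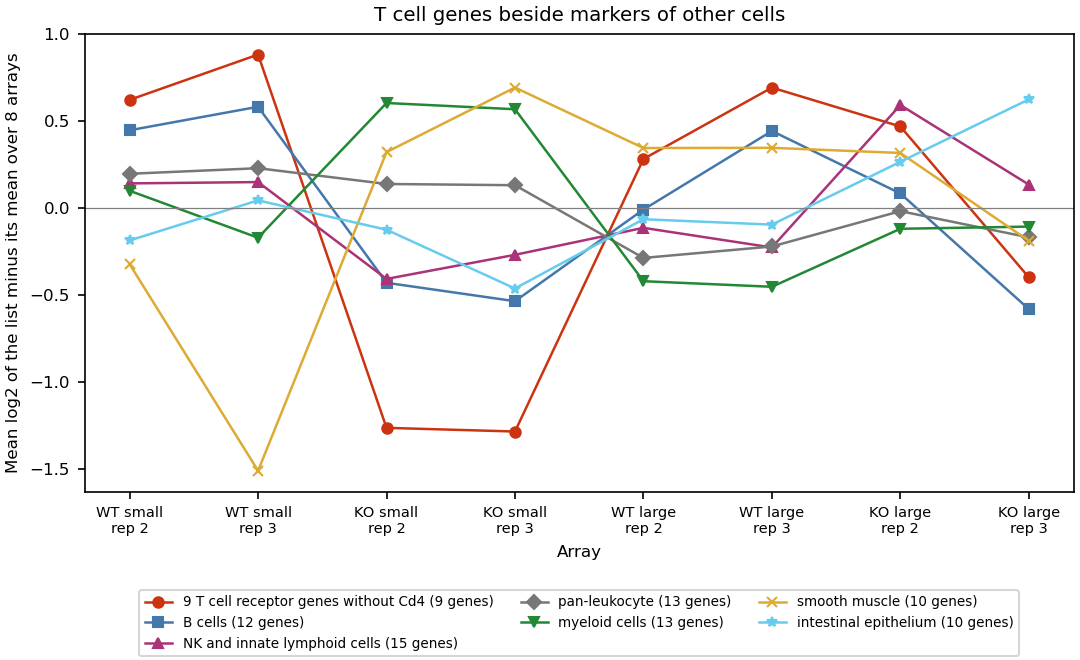
Mean log2 signal of each marker list minus its mean over the 8 arrays, in array order, with the number of genes tested in each list. The 9 T cell receptor genes without Cd4 are lowest on the 2 knockout small intestine arrays, and the myeloid list is highest on those 2. The B cell list is low on those 2 and on knockout large intestine replicate 3.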

How the data were processed

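Per the labels, Cy3-labelled total RNA was hybridised to Agilent arrays. Per the file headers, each deposited spot intensity was made with Agilent Feature Extraction (release 10.7.3.1), which subtracts a background and a spatial trend; nothing was scaled between arrays. The authors also deposited an intensity table on a linear scale, scaled between arrays by a step that stays unknown (column medians 159 to 161). The submitters' processing notes name R 3.3.0. Here signals were set on the log2 scale, from which each array's 75th percentile over 59305 non-control spots was subtracted. Spots with an outlier flag were dropped (148 to 312 per array) and spots of a probe were averaged. A probe was kept if both arrays of some group had it well above background, and of each gene's kept probes that with the highest mean was used. Comparisons used limma (version 3.58.1, under R 4.3.3) and a model of 4 group means with 4 residual degrees of freedom, or additive genotype and segment terms (5), with Benjamini-Hochberg adjustment. The fit was tested on simulated data. Genes were matched to RefSeq GRCm38.p6 for names. The 10 genes, the 16 lists and the rule for named genes were chosen with earlier results of these data known. The rule names the 10 genes, up to 4 of each list with the smallest p among those that passed in the small intestine (where none did, up to 2 from another comparison), list members behind a count of 5 or fewer, the 8 nearest patterns and check genes. Some genes that the rule selects are named nowhere and not reported here. Amy2a5, Xist and Ddx3y were named after their values were seen.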

Additional observations from a re-analysis of the deposited data

Results flagged for a closer look

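Gzmb, encoding a granule protease of cytotoxic T and NK cells, fell in the knockout small intestine and rose in the knockout large intestine (1.85 ± 0.23, adjusted p = 0.0413 in limma). Neither the fall nor the rise passed with any 1 array left out. The estimates there were -1.28 to -0.92 in the small and 1.65 to 2.06 in the large intestine. Large minus small intestine, the knockout effects on Gzmb differed by 2.95 ± 0.32 in a direct test (adjusted p = 0.0448). This was the only such difference that passed among the genes of the 16 lists and the 10 T cell receptor genes. It passed without knockout small intestine replicate 2 (adjusted p = 0.0442), but not when any other array was left out (adjusted p 0.0540 to 0.255). Over the alternatives that keep all arrays, adjusted p in limma ran from 0.0408 (animal block) to 0.0833 (no filter on background). The animal block assumed that same-numbered arrays of a genotype share a pup, which no label states.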

How the results depend on the processing

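Of the 10 T cell receptor genes, 5 passed in the small intestine, and 6 with normexp background correction (offset 50), the deposited intensity table or a trended and robust prior. The count was 3 without a filter on background, 3 with a replicate block and 0 with the compared groups alone, and it ran from 0 to 6 when arrays were left out in turn (a lone array is assumed to vary like the other groups). The replicate numbers share only a number, which is also the slide row: same-numbered deviations correlated at 0.009 to 0.263, and the block changed no other count of the 10 genes. Over both segments the count ran from 0 to 1 on leaving out arrays. Between wild-type segments it was 2 with quantile normalization (Cd247 added) and 0 with the probe of most spots, an alternative chosen after seeing the data, like each probe on its own.

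None of the 5 genes that fell changed sign, which leaving out an array could not bring about, since their small intestine groups did not overlap. Of results that did not pass, 15 changed sign in some setting. Cd4 in the small intestine read 0.00062 with quantile normalization and -0.29 to 0.29 on leaving out arrays. In the large intestine Lck read 0.0039 with normexp and the second Cd8a probe 0.39. There leaving out arrays gave Cd247 -0.90 to 0.14, Cd3d -0.97 to 0.30, Cd3e -0.36 to 0.17, Cd8a -1.09 to 0.25, Lck -0.15 to 0.14 and Zap70 -0.75 to 0.013. Over both segments the dim Cd4 probe read -0.20. For the difference between segments, leaving out arrays gave Cd247 -0.16 to 0.87, Cd8b1 -0.0033 to 2.12 and Zap70 -0.25 to 0.51. Between wild-type segments Zap70 read 0.0013 with quantile normalization, Cd2 -0.084 as the mean of probes and -0.24 for its probe with 10 spots, and the ITAM probe of Cd247 0.0098. Leaving out arrays gave Cd2 -0.29 to 0.43, Cd3g -0.28 to 0.36 and Zap70 -0.11 to 0.088.

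Over all genes, 1988 passed in the small intestine, against 485 without a filter, 1149 with the replicate block, 33 with the compared groups alone and 70 to 3831 on leaving out arrays. The all-gene count was 62 in the large intestine (0 to 122 over all alternatives), 131 over both segments (1 to 776), 28 for the difference (1 to 941) and 3995 between wild-type segments (900 to 4988). Of 32 list genes that passed in the small intestine, 13 passed without a filter, 20 with the block and none with the compared groups alone in limma. In that last fit all 32 were at an unadjusted p under 0.05, against 4883 of all 20116 genes. These 32 had been picked for passing on the same arrays, so this is no separate support. Signals of Cd247, Cd8a and Cd8b1 lie near background, which limits their folds.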
